A study of Mus musculus with 6 samples.

Results

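The genes described here are the rows of an embryonic stem cell RNA-seq count table whose Gene Ontology biological process text names an immune, inflammatory or defense response. A row was kept when that text held "immun", "inflammatory" or "defense response" and none of the words transcription, transport, nervous system, neuro, axon or synap. Rows named as predicted Gm genes or ending in Rik were left out, as were Gbp2, Oasl2, Mt1 and Mt2. This left 47 of the 1653 listed genes. Of 96 rows with such a term, 35 were dropped for an excluded word and 14 for their symbol alone. The rule used no measured value. The terms overlap: 23 of the 47 genes carry an immune term, 20 an inflammatory term and 24 a defense response term.

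The RNA came from C57BL/6 mouse embryonic stem cells in 2 groups, 3 wild-type libraries and 3 Yaf2KO libraries, in which the Yaf2 gene was disrupted with Cas9. YAF2 is a subunit of variant Polycomb repressive complex 1, a histone H2A ubiquitin ligase that acts at silent developmental genes. Both groups grew with serum and leukemia inhibitory factor on mouse embryonic fibroblasts that had been stopped from dividing with mitomycin C, and the labels do not give the number of knockout clones. No label says that the replicates were separate cultures, so the spread between them may be technical. The Yaf2 transcript is not among the rows analysed here, so the knockout was not checked in the counts. The values are raw read counts per gene. The listed genes summed to between 56367 and 72975 reads in the wild-type libraries and between 143682 and 451075 in Yaf2KO. These sums cover part of each library and are not its sequencing depth, and library totals were not used here.

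Immune and inflammatory genes encode several layers of defense. Infected or stressed cells sense foreign nucleic acid and release interferon, which acts through STAT and IRF factors on interferon-stimulated response elements and switches on antiviral proteins. Cytokines and chemokines then recruit leukocytes, whose granule proteins, receptors and signalling kinases carry out the response. Pluripotent cells are known for a weak interferon response and for constant expression of a few antiviral genes, the Ifitm family among them. Many genes of the set carry their term for a role in leukocytes. Others carry a defense or immune term although their products are better known for other functions: Fgfbp1 encodes a carrier of fibroblast growth factors, Sntg1 a syntrophin, Hist1h2bh a histone H2B and Olfr90 an olfactory receptor.

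The interferon-stimulated response element, here searched on both strands as 2 copies of GAAA with any 2 bases between them, was the sequence feature looked for first in the promoters. RefSeq promoter sequences (GRCm38.p6) matched 36 of the 47 genes, and the search covered the 250 bases before the start site. A match was present in 6 of these 36 genes (16.7%), against 4.61% of 716 listed genes and 3.46% of 27025 genes in the table. The stretches are shown because they mark the 6 genes with this pattern among the 36 searched. The other genes of the set had no match in these 250 bases or were not searched. Each is written along the gene's own strand with the matching bases in capitals and up to 15 bases on either side. Overlapping matches run together, 3 in Isg15 and 2 in Oas1a. In Slamf8 the match lies on the opposite strand, so the capitals read as its reverse complement.
Isg15: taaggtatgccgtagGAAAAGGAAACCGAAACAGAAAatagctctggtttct
Oas1a: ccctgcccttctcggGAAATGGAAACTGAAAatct
Ifitm2: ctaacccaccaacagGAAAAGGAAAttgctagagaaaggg
Cxcl10: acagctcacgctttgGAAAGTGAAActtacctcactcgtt
Tgtp1: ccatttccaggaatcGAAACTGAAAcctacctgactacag
Slamf8: ctttacccgggatgcTTTCGCTTTCaagac
The stretches lie at chr4:156200860-156200911 for Isg15, chr5:120907526-120907560 for Oas1a, chr7:140955983-140956022 for Ifitm2, chr5:92349078-92349117 for Cxcl10, chr11:48992299-48992338 for Tgtp1 and chr1:172590569-172590598 for Slamf8, all on the minus strand. The matches end 4 bases before the RefSeq start in Oas1a, 5 in Slamf8, 36 in Ifitm2, 56 in Isg15, 67 in Tgtp1 and 203 in Cxcl10. The annotation of the counts places Tgtp1 at 48985327 to 48994172 on the minus strand. Its stretch therefore lies inside the gene as counted and not before that start. The gamma-activated sequence, searched as TTC and GAA with any 3 bases between them, a pattern that reads the same on both strands, was found in 6 of the 36 promoters as well (16.7%, against 8.13% of all genes in the table). Those genes are Oas1a, C1rb, Tgtp1, Ctsg, Nrros and Ltb, so Oas1a and Tgtp1 hold both motifs. A match describes the letters and does not show that a factor binds there.

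In raw counts nearly the whole set had more reads in Yaf2KO, as the rest of the table did. Summed over 3 libraries, the knockout reads outnumbered the wild-type reads for 45 of the 47; Ctsg went the other way and Mpo was equal. Over all listed genes 92.2% had more. For 17 of the 47 (36.2%) the lowest knockout count exceeded the highest wild-type count, against 27.4% of all listed genes. In 0 genes of the set, and in 0.00% of the listed genes, did the reverse hold. Among genes with enough reads to be tested the share was 13 of 20, or 65.0%, next to 65.2% of all tested genes. Without Yaf2KO 3 the count was 30 of 47, while the background rose to 53.5%. Set apart by library, 80.9% of the genes exceeded every wild-type library in Yaf2KO 1 (80.2% of all listed genes), 78.7% in Yaf2KO 2 (63.2%) and 48.9% in Yaf2KO 3 (37.0%). These shares are not matched for read count. The median sum over all libraries was 53 reads in the set and 18 over all listed genes. Shares by library among tested genes only were not computed.

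**Figure D1:**
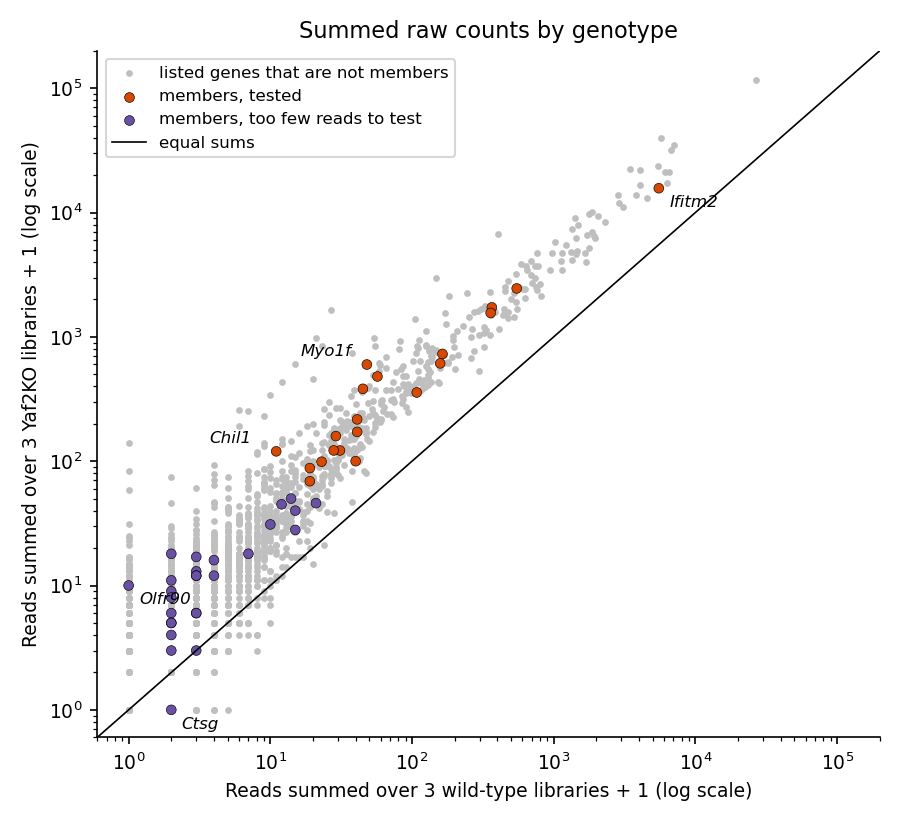
Reads summed over the 3 Yaf2KO libraries against reads summed over the 3 wild-type libraries, both plus 1 and on log axes, with the line of equal sums. Members lie within the cloud of the other listed genes, 45 of 47 above the line, with Ctsg below it.

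Members held 3.38%, 3.61% and 4.79% of the listed reads in wild type 1 to 3 and 3.02%, 3.12% and 3.31% in Yaf2KO 1 to 3. Without the antiviral gene Ifitm2 the shares were 1.24%, 1.28% and 0.954%, and 1.1%, 1.37% and 1.5%, so the groups overlapped. Enough reads for a test were present in 20 of the 47 genes (42.6%), against 22.7% of all listed genes. The rule keeps predicted Gm and Rik rows out of the set, whereas the listed genes include them. The part of this in the difference was not tested.

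The genes were then compared after scaling each library on the listed genes with TMM, a method that sets the typical gene to no change. Log2 fold changes are therefore relative to the typical listed gene, and scaled counts are raw counts divided by each library's scale. On this scale 0 of the 20 tested members passed the threshold (edgeR quasi-likelihood test, Benjamini-Hochberg adjusted p under 0.05 over all 376 tested genes), with 0 at an unadjusted p under 0.05. Over all tested genes 0.798% were called higher and 0.00% lower, and 4.26% had an unadjusted p under 0.05. DESeq2 called 0 members (2.66% of all genes it tested) and put Myo1f alone at an unadjusted p under 0.05 (5.05% of all). Without a low-count filter edgeR called 0 of 47 members (0.916% of all genes) and put Myo1f and Chil1 at that level (4.70%). Without Yaf2KO 1 it called 0 members, with 2.59% of all genes higher and 0.576% lower. limma-voom called 0 members and had 0 at the unadjusted level, beside 0 and 14 of all 376 tested genes. The median log2 fold change of the 20 members was 0.19 (range -0.76 to 1.31), beside -0.03 for all tested genes. Above 0 lay 12 members and below it 8, a share above 0 of 60.0% against 47.9% of all tested genes. Standard errors of single members had a median of 0.60, so changes of a size seen here were not detectable one by one. With limma-voom the median of the members was -0.04. When all libraries were instead taken as equally deep, 17 of 19 tested members were called higher, against 75.7% of all tested genes; that setting leaves the shift common to the table, 2.16 log2 units, in place.

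**Figure D2:**
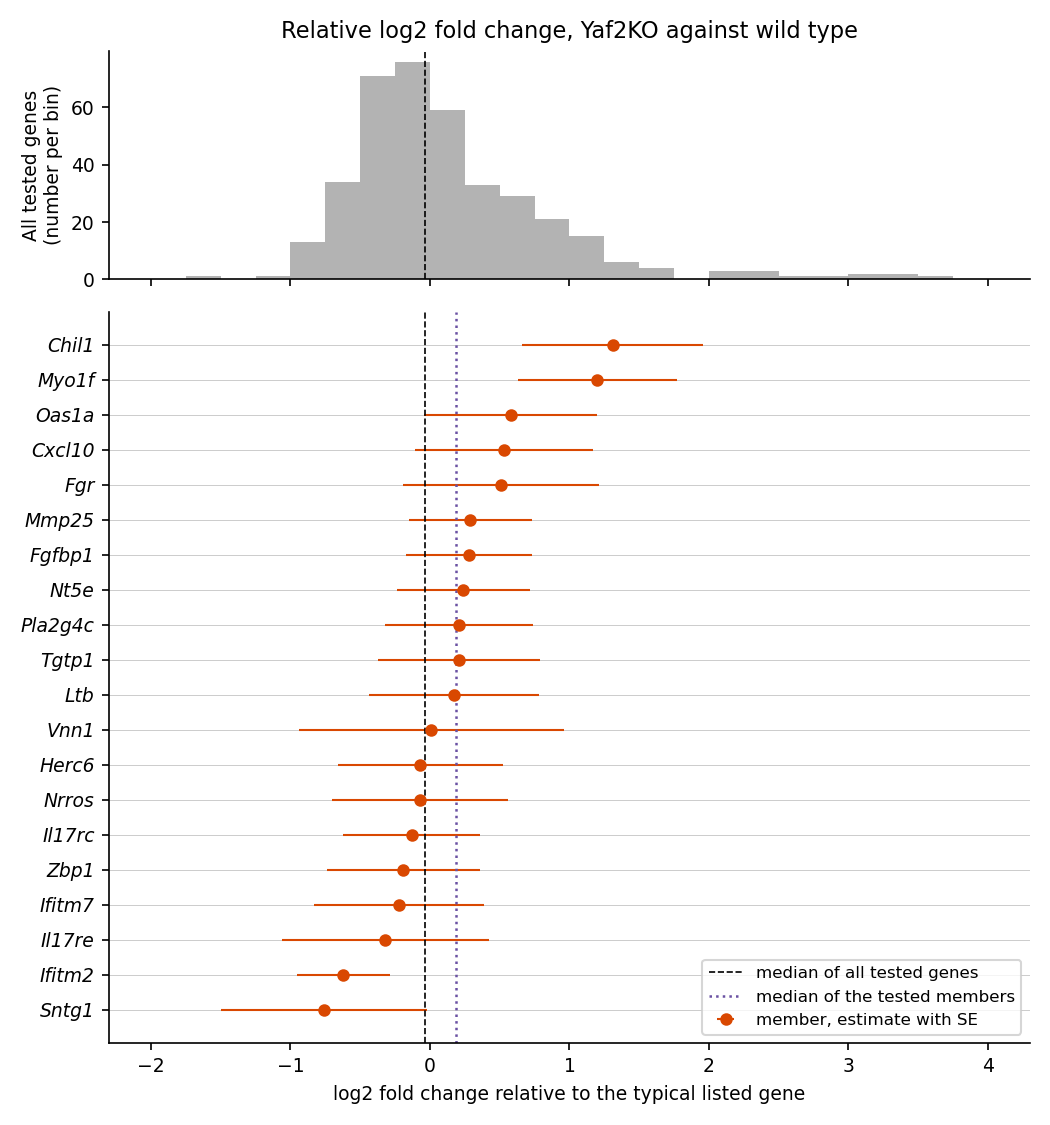
Top, the log2 fold changes of all 376 tested genes as a histogram; bottom, the 20 tested members with bars of 1 standard error (edgeR, 3 libraries per group). The members spread around the dashed median of all tested genes (-0.03), from Sntg1 at -0.76 to Chil1 at 1.31.

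Interferon-induced antiviral genes and GTPases made up 9 of the 47. Each of the 9 had the larger sum in Yaf2KO, 6 could be tested, 0 were called, and their median log2 fold change was -0.13, with 2 above 0 and 4 below. Ifitm2 (chromosome 7, 140954839 to 140955961, minus strand, mm10), a membrane protein that blocks the entry of viruses, held 62.4% of all reads of the set. It gave 1401, 1313 and 2800 reads in wild type 1 to 3, beside 8673, 4409 and 2597 in Yaf2KO 1 to 3, so the groups overlapped in raw counts through wild type 3. After scaling it had 3714, 4025.3 and 7179.5 in the wild-type libraries, beside 3173.7, 3089.6 and 3477.7 in the knockouts. Every Yaf2KO library then lay below every wild-type library, which held for 1 of the 20 tested members and for 4.26% of all tested genes. The means were 4973 ± 1917 and 3247 ± 204 (SD, n = 3 each), and the log2 fold change came to -0.62 ± 0.33 (SE; edgeR gave an adjusted p of 0.95). Wild type 3 was the highest library; without it the log2 fold change was -0.27 (SE 0.33). At equal depth the value turned to 1.51. Per kilobase of annotated exon, Ifitm2 had the highest scaled level of the tested members in wild type, 7592 against 224.2 for Fgfbp1, the next in order. Ltb (94.1), Mmp25 (63.9) and Il17rc (55.3) followed, and Herc6 was lowest at 2.88.

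Oas1a, which makes the 2-5A signal that activates RNase L, gave 14, 28 and 14 reads in the wild-type libraries, beside 353, 100 and 26 in the knockouts. Yaf2KO 1 stood far above the other libraries, and Yaf2KO 3 lay within the wild-type range. After scaling the values were 37.1, 85.8 and 35.9 against 129.2, 70.1 and 34.8, with Yaf2KO 1 the highest and Yaf2KO 3 the lowest of all 6 libraries. Its log2 fold change came to 0.58 ± 0.62 (SE; edgeR gave an adjusted p of 0.95), or 0.01 without Yaf2KO 1. Oas1d, a paralogue that lies 7014 bases away on chromosome 5, gave 4, 3 and 4 reads beside 33, 8 and 3 and was too low to test. Both Oas1 genes thus had their highest raw count in Yaf2KO 1, the library with the largest sum of listed reads. After scaling Oas1d had 10.6, 9.2 and 10.3 in the wild-type libraries, beside 12.1, 5.61 and 4.02 in the knockouts. Relative to the wild-type mean, Yaf2KO 1 was at 1.39 log2 units in Oas1a but at 0.25 in Oas1d. Reads of close paralogues can be split unevenly, and whether this happened here was not tested.

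Zbp1, a sensor of Z-form nucleic acid that can trigger necroptosis, gave 28, 18 and 61 reads in the wild-type libraries, beside 141, 136 and 79 in the knockouts. The raw groups were separate, whereas the scaled groups overlapped, with wild type 3 highest at 156.4 and the other libraries between 51.6 and 105.8 (-0.19 ± 0.55, log2 fold change and SE). Ifitm7, a relative of Ifitm2, gave 22, 12 and 6 reads beside 116, 34 and 21 (-0.22 ± 0.61, log2 fold change and SE). Its wild-type libraries spread over 1.86 log2 units after scaling, more than the 0.81 of the Yaf2KO libraries.

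Herc6, an E3 ligase that attaches ISG15 to proteins, gave 14, 4 and 12 reads beside 56, 48 and 17 (-0.07 ± 0.59, log2 fold change and SE). Tgtp1, an immunity-related GTPase that acts on vacuoles of pathogens, gave 9, 6 and 7 reads beside 33, 45 and 20 (0.21 ± 0.58, log2 fold change and SE). Both had separate groups in raw counts and overlapping groups after scaling, and on the scaled values both were highest among the knockout libraries in Yaf2KO 2. Gbp10, a guanylate-binding protein, had 9 reads in all. Isg15, the ubiquitin-like modifier itself, gave 4, 6 and 3 reads beside 9, 31 and 9 and was too low to test. Its raw groups were separate, again with Yaf2KO 2 highest. Gbp2 and Oasl2, interferon-induced genes that the rule leaves out, came to log2 fold changes of 0.31 ± 0.48 and 0.43 ± 0.44 (SE) and were not called either.

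**Figure D3:**
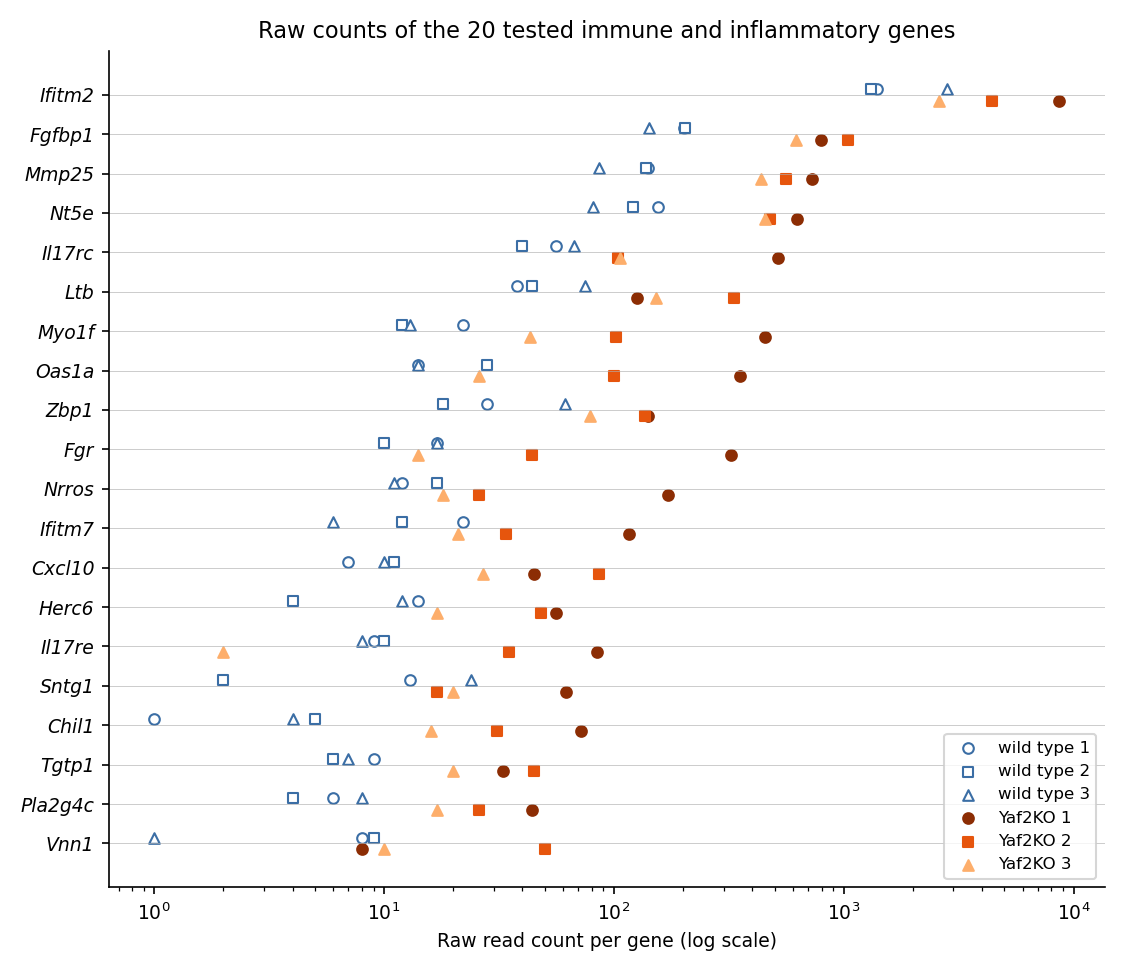
Raw read counts of the 20 tested members on a log axis, with open blue symbols for wild type 1 to 3 and filled symbols for Yaf2KO 1 to 3. In 13 of the 20 genes all Yaf2KO symbols lie to the right of the wild-type symbols; in Ifitm2, Oas1a, Fgr, Ifitm7, Il17re, Sntg1 and Vnn1 they overlap.

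Cytokines and chemokines, the secreted signals of the set, were 5 genes; each had the larger sum in Yaf2KO and 2 could be tested. Ltb, which encodes the membrane cytokine lymphotoxin beta, gave 38, 44 and 75 reads in the wild-type libraries, beside 126, 333 and 152 in the knockouts. The raw groups were separate, but after scaling Yaf2KO 1 was the lowest library (46.1) and Yaf2KO 2 the highest (233.3). The log2 fold change was 0.17 (SE 0.61). Cxcl10, a chemokine for T cells and a classical interferon target, gave 7, 11 and 10 reads beside 45, 86 and 27, with the same order after scaling, Yaf2KO 1 lowest and Yaf2KO 2 highest. Its log2 fold change was 0.53 (SE 0.64), and -0.02 without Yaf2KO 2. Ccl20 gave 5, 4 and 0 reads beside 9, 21 and 0, and Ccl7 had 0, 2 and 0 against 3, 8 and 0. Both chemokines were thus highest in Yaf2KO 2 and at 0 in Yaf2KO 3, at counts too low to test. Il17b, a ligand of the interleukin 17 family, gave 5, 0 and 15 reads beside 35, 4 and 6 and overlapped between the groups.

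Receptors and adhesion molecules were 9 genes; each had the larger sum in Yaf2KO and 2 could be tested. Il17rc (chromosome 6, 113471427 to 113483140, plus strand), a subunit of the receptor for interleukin 17A and 17F, gave 56, 40 and 67 reads in the wild-type libraries, beside 518, 104 and 106 in the knockouts. After scaling the group means were 147.6 ± 24.6 and 134.8 ± 58.7 (SD, n = 3 each; log2 fold change -0.13, SE 0.49). Il17re, the receptor subunit for interleukin 17C, ends 668 bases before Il17rc starts on the same strand. It gave 9, 10 and 8 reads beside 84, 35 and 2. The neighbours parted in Yaf2KO 3, where Il17re was 2.80 log2 units below its wild-type mean (a value of -2.80) and Il17rc at -0.04. Its log2 fold change was -0.32 (SE 0.74), and 0.15 without Yaf2KO 3.

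The other 7 receptors had few reads. Cd4, the co-receptor of helper T cells, gave 4, 0 and 2 reads beside 6, 9 and 2. Cxcr6, the receptor for CXCL16, had 3, 0 and 0 against 14, 1 and 0. Selp, the P-selectin of platelets and endothelium, had 0, 1 and 1 against 4, 2 and 5, with separate groups. Havcr2, Ffar2, Slamf8 and Olfr90 had between 3 and 9 reads over all 6 libraries. All 9 reads of Olfr90 came from Yaf2KO 1.

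Intracellular signalling and cytoskeletal genes were 5, with 4 tested and 0 called. Myo1f (chromosome 17, 33555719 to 33607764, plus strand), an unconventional myosin that drives the migration of neutrophils, gave 22, 12 and 13 reads in the wild-type libraries, beside 453, 102 and 43 in the knockouts. After scaling these came to 58.3, 36.8 and 33.3 against 165.8, 71.5 and 57.6. All Yaf2KO libraries lay above wild type 2 and 3, and Yaf2KO 3 fell just short of wild type 1. The log2 fold change came to 1.2 ± 0.57 (SE; edgeR gave an adjusted p of 0.95), and 0.58 (SE 0.51) without Yaf2KO 1. Fgr, a Src-family kinase of myeloid cells, gave 17, 10 and 17 reads beside 323, 44 and 14. Its scaled value was 118.2 in Yaf2KO 1 but 30.8 and 18.7 in Yaf2KO 2 and 3, next to 39.8 ± 7.93 in wild type (SD, n = 3). The log2 fold change of 0.51 (SE 0.70) rested on that library and came to -0.67 without it.

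Nrros, which holds latent TGF-beta on the surface of microglia and macrophages, gave 12, 17 and 11 reads beside 172, 26 and 18. Its raw groups were separate through a difference of 1 read, and its scaled groups overlapped (-0.07 ± 0.63, log2 fold change and SE). Sntg1 gave 13, 2 and 24 reads beside 62, 17 and 20 and a log2 fold change of -0.76 (SE 0.74). Wild type 2 was its lowest library and wild type 3 its highest, a span of 3.13 log2 units after scaling, so the largest negative value of the set lay within the wild-type spread. Sh2d1a, the adaptor protein of T and natural killer cells, had 8 reads in all.

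Enzymes and the lectin of tissue inflammation were 5 genes, all tested and 0 called, with 5 of 5 above 0 and a median of 0.24. Over all tested genes 47.9% lay above 0, and the grouping by role was made after the values were seen. Chil1 (chromosome 1, 134182176 to 134190181, plus strand), a chitinase-like lectin secreted in inflamed tissue, gave 1, 5 and 4 reads in the wild-type libraries, beside 72, 31 and 16 in the knockouts. After scaling the values were 2.65, 15.3 and 10.3 against 26.3, 21.7 and 21.4. It was the 1 tested member whose Yaf2KO libraries all stayed above wild type after scaling, as did 6.12% of all tested genes. Its log2 fold change came to 1.31 ± 0.65 (SE; edgeR gave an adjusted p of 0.95), 0.93 without wild type 1 and 1.94 without wild type 2. The 3 wild-type counts add up to 10 reads, and the gene passed the count filter in none of the fits that left out a Yaf2KO library.

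Mmp25, a membrane-anchored matrix metalloproteinase of leukocytes, gave 141, 138 and 86 reads in the wild-type libraries, beside 730, 559 and 436 in the knockouts. Nt5e, the ecto-5'-nucleotidase CD73 that makes adenosine and damps inflammation, had 156, 121 and 81 against 624, 476 and 455. Fgfbp1, of the secreted proteins, had 202, 203 and 142 against 793, 1040 and 617. These 3 genes, with the most reads after Ifitm2, shared an order: wild type 3 lowest in wild type, separate groups in raw counts, and Yaf2KO 1 lowest and Yaf2KO 3 highest among the knockout libraries after scaling. Their log2 fold changes were 0.29 (SE 0.44), 0.24 (SE 0.48) and 0.28 (SE 0.45). Pla2g4c, a cytosolic phospholipase A2, gave 6, 4 and 8 reads beside 44, 26 and 17 (0.21, SE 0.53). Vnn1, a pantetheinase, had 8, 9 and 1 against 8, 50 and 10 (0.01, SE 0.95) and spread over 3 log2 units or more within each group (3.0 and 3.2).

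**Figure D4:**
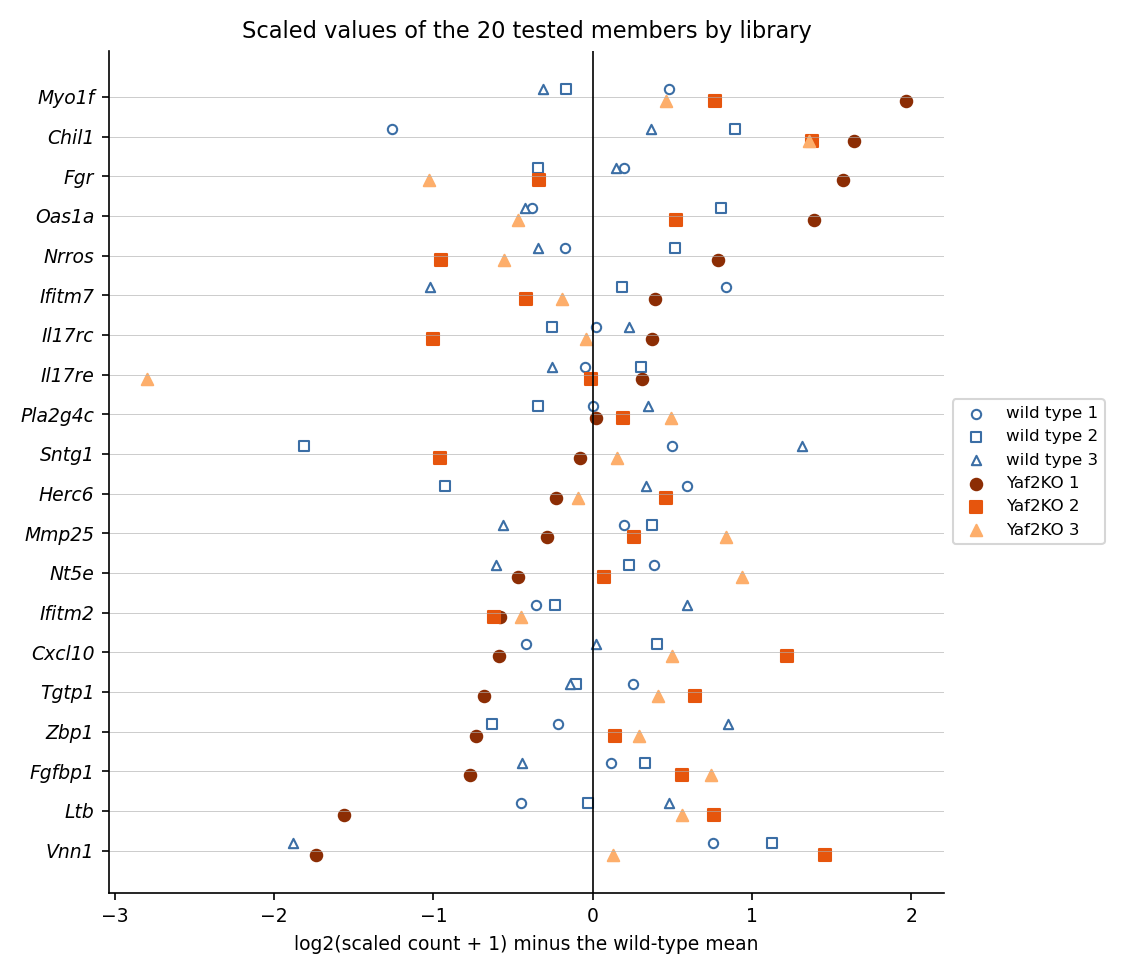
Scaled values of the 20 tested members by library, as log2(scaled count + 1) minus the mean of the wild-type libraries; open symbols are wild type, filled symbols Yaf2KO. Genes are ordered by Yaf2KO 1, which runs from -1.74 in Vnn1 to 1.97 in Myo1f, while Yaf2KO 2 and 3 often lie on the other side of 0.

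Granule and antimicrobial proteins, a class that also holds the histone Hist1h2bh and is not limited to leukocyte genes, had the fewest reads. Of 7 genes 0 could be tested. Mpo, the peroxidase of neutrophils, gave 0, 1 and 1 reads in the wild-type libraries, beside 0, 2 and 0 in the knockouts. Ctsg, the neutrophil protease cathepsin G, had 1 read in wild type 1 and none elsewhere. Lpo, which lies 2014 bases from Mpo on chromosome 11, had 1, 4 and 9 against 10, 6 and 11. Bpi, Defb30 and Gzme had 4 to 14 reads in all. Hist1h2bh had 5, 1 and 8 against 24, 13 and 2. Histone mRNAs mostly lack a poly-A tail and are captured poorly by poly-T selection. Whether that bears on these counts was not tested. Secreted proteins other than Fgfbp1 were likewise low: Serpinc1 (antithrombin) gave 1, 1 and 0 reads beside 12, 3 and 1, and Serpina16 had 1, 0 and 0 against 8, 2 and 7. Wfdc1, a secreted protein with a WAP domain, had 0, 0 and 2 against 4, 3 and 5. The groups were separate in Serpina16 and Wfdc1. C1rb, C1qtnf3 and Apol10b had 5 to 11 reads in all. Of the 27 members too low to test, 25 had the larger sum in Yaf2KO, next to 89.9% of the 1277 listed genes too low to test. In 4 of the 27 the raw groups were separate, next to 16.3% of those 1277 genes, and 12 had fewer than 10 reads over all libraries.

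The knockout libraries differed from one another within the set. Among the 20 tested members the span of the Yaf2KO libraries after scaling exceeded that of the wild-type libraries in 13 (65.0%, against 68.9% of all tested genes), with medians of 1.39 and 0.93 log2 units. Yaf2KO 1 was the highest knockout library in 8 members, Yaf2KO 2 in 5 and Yaf2KO 3 in 7, shares of 40.0%, 25% and 35.0% next to 40.7%, 24.7% and 34.6% of all tested genes. A further pattern was picked out after the values were seen and carries no test. Relative to wild type, 9 members (45%) were lower in Yaf2KO 1 and higher in Yaf2KO 2, compared with 22.6% of all tested genes. They are Fgfbp1, Mmp25, Nt5e, Ltb, Zbp1, Cxcl10, Herc6, Tgtp1 and Vnn1. The opposite pattern held in Il17rc, Fgr, Nrros, Ifitm7 and Il17re, 25% of the members and 24.7% of all tested genes.

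Markers of the feeder fibroblasts differed between the same libraries. Of 26 fixed markers 4 were listed, Col1a1, Postn, Acta2 and Tagln, of which Postn had 0 to 12 reads per library. Their summed scaled counts were 4366, 4240 and 2762 in wild type 1 to 3 and 1145, 7605 and 4548 in Yaf2KO 1 to 3. Acta2 was at -1.68 in Yaf2KO 1 and 1.95 in Yaf2KO 2, and Col1a1 at -2.67 and 0.62. The part of feeder RNA in the values of the 9 genes was not tested, and in bulk RNA a change in the number of cells of a type cannot be told apart from a change in RNA per cell. Of 15 macrophage markers 0 were listed. Of 15 stem cell markers 3 were listed, the pluripotency factors Nanog and Klf4 and the germline and stem cell gene Dppa3, each with reads in every library. Their summed scaled counts were 7293, 6889 and 8631 in the wild-type libraries and 10495, 7811 and 5225 in Yaf2KO 1 to 3. The stem cell sum was highest in Yaf2KO 1, where the feeder sum was lowest. It was lowest in Yaf2KO 3, whereas the feeder sum was highest in Yaf2KO 2. Log2 fold changes were -0.09 (SE 0.33) for Nanog, 1.61 (SE 0.45) for Klf4 and -0.16 (SE 0.33) for Dppa3, and edgeR called none of them (adjusted p of 0.95, 0.177 and 0.95). The part of the stem cell markers in the members' values was not tested.

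**Figure D5:**
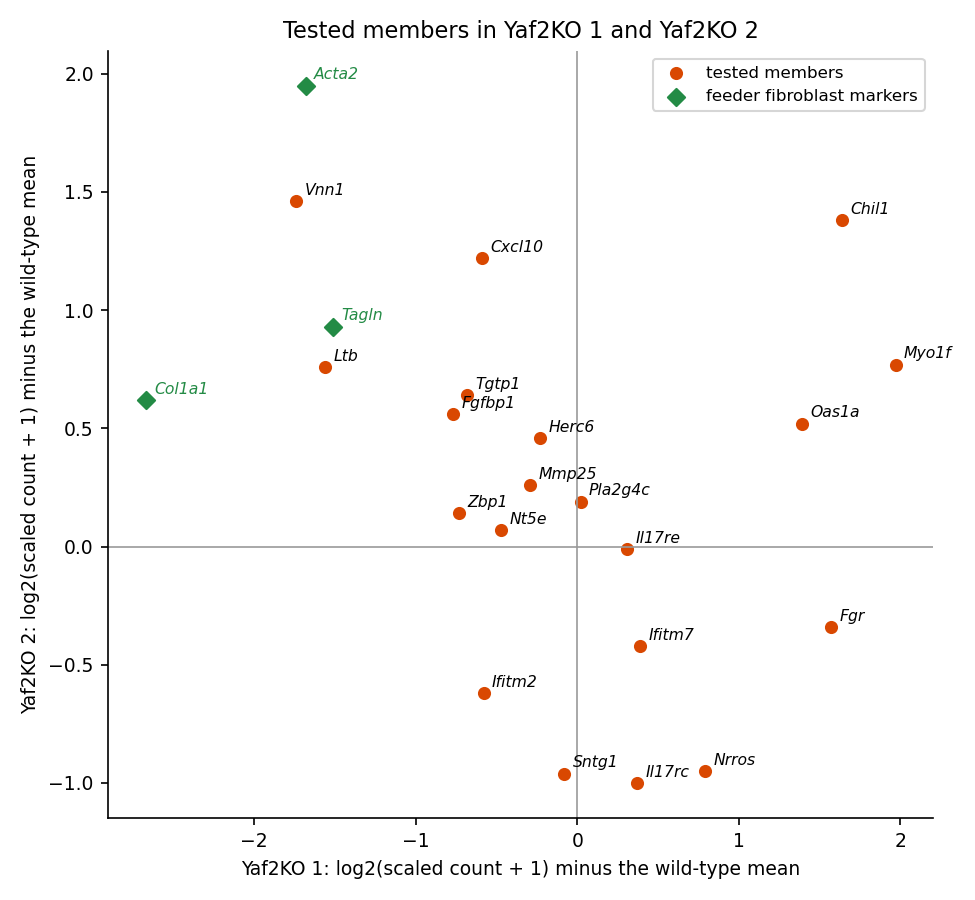
Scaled values of the 20 tested members in Yaf2KO 1 (horizontal) and Yaf2KO 2 (vertical), each as log2(scaled count + 1) minus the wild-type mean, with 3 feeder fibroblast markers as green diamonds. The upper left part holds 9 members together with Acta2, Tagln and Col1a1, the lower right Fgr, Nrros, Il17rc, Ifitm7 and Il17re.

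Few other genes of the same pathways could be tested, and none of those was called. Over 10 lists of innate sensors, chemokines, cytokines, receptors, interferon-induced genes, antigen presentation, complement, antimicrobial proteins, lymphocyte genes and inflammatory mediators, 55 of 612 symbols were listed. Of these 26 belong to the set described above and 29 do not. Among the 29, 7 could be tested and 0 were called higher or lower, with log2 fold changes from -0.42 to 1.36, 5 above 0 and 2 below. Over all 376 tested genes 0.798% were called higher and 0.00% lower, so 0 calls among 7 genes do not set them apart. The bacterial sensor Nod1 gave 595, 497 and 613 reads in the wild-type libraries, beside 3263, 2051 and 1249 in the knockouts (-0.12, SE 0.30). The adhesion molecule Icam1 had 430, 314 and 384 against 2554, 1046 and 480 (-0.42, SE 0.32). In raw counts each of the 2 genes was higher in every Yaf2KO library than in every wild-type library. The same held for 65.2% of all tested genes. Ackr4, a scavenging chemokine receptor, had 8, 4 and 8 against 33, 77 and 57 (1.36, SE 0.74), and the chemokine Cxcl12 35, 33 and 43 against 201, 116 and 139 (0.16, SE 0.51). The inflammatory cytokines Tnf and Il1b, which the rule leaves out, had 0 to 4 reads per library, and the DNA sensor Tlr9 had 1 read in wild type 2 and none elsewhere.

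Several members lie next to each other in the genome. Besides Il17re and Il17rc, Oas1a and Oas1d, and Mpo and Lpo, the granule protease genes Ctsg and Gzme are 15044 bases apart on chromosome 14. The 47 genes sit on 18 chromosomes, 46 of them were found in GENCODE vM21 as protein-coding genes, and 36 of those have identical coordinates there. The counts are sums over whole genes, so exons, introns and isoforms were not told apart, and no strand setting is given in the sources used here. Reads of Ifitm2 and Ifitm7, of the Oas1 genes and of Tgtp1 are uncertain where close paralogues share sequence.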

How the data were processed

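RNA of 6 libraries, 3 wild type and 3 Yaf2KO, was analysed from the deposited raw counts per gene, 1 file per library, with unnormalised counts per the file headers. TopHat2 (2.0.12), the build mm10, HTSeq (0.6.0) and Cufflinks (2.2.1) appear in the submitters' processing notes, without roles. Every file lists the same 1653 genes, and no source used here says how that list was drawn up.

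The fit over all genes used edgeR 4.0.16 (R 4.3.3): filterByExpr by genotype (376 genes left), TMM factors (0.923 to 1.08), quasi-likelihood test, Benjamini-Hochberg adjustment at 0.05. Scaled counts are counts divided by the library's TMM-scaled sum relative to the mean of the 6 libraries; log values use a pseudocount of 1. The test was tested on simulated data. Groups and replicate numbers come from the sample titles. Replicates differed beyond sampling noise in each pair (lowest ratio of chi-square to its degrees of freedom 5.01) and were kept as separate samples.

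Members with enough reads to test were named by read count (at most 30), with every called member; of the others, those with the highest counts or differences are examples, and further ones were named after their values were seen. Members and lists were chosen with earlier results of these data known, and the grouping by role was made after the values were seen. Alternatives were other scalings, DESeq2 1.42.0, limma-voom (limma 3.58.1), other filters, the replicate number as a block and each library left out. Motifs were searched with Python 3.11.15 in RefSeq promoters. The result of the marker list for leukocytes other than macrophages is not reported here.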

Additional observations from a re-analysis of the deposited data

How the results depend on the processing

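All alternatives were planned. The number of members called stayed at 0 in every one except equal depth (17), with each single library left out too (0 to 0). The smallest adjusted p of a member outside equal depth was 0.424. Calls over all listed genes numbered 3 and came to 10 with the DESeq2 Wald test, 0 with limma-voom, 15 without a low-count filter, 15 at a mean CPM of at least 1 and 314 at equal depth; leaving out single libraries gave 0 to 11. Under the replicate block they came to 0 and members called to 0. The numbers are only shared: the correlations between libraries of one number, over their deviations, were 0.03, 0.17 and 0.16, and Yaf2KO 1 and 2 and wild type 1 correlated better with another number than with their own.
The median of the members was 2.16 at equal depth and -0.04 with limma-voom, and -0.02 to 0.28 with single libraries left out. The 17 members with separate raw groups came to 1 after scaling and 19 to 30 with single libraries left out. Over all listed genes the share moved too, from 27.4% to 4.1% after scaling and to between 29.5% and 53.5% with single libraries left out.
Of 292 alternative values of the 20 members 47 turned sign, 0 of them in Chil1, Myo1f, Oas1a, Fgfbp1 and Pla2g4c. Chil1 and Pla2g4c each had values in only 3 of the 6 fits that left out a library. The causes of the sign changes were not tested, except that the equal-depth setting keeps the table-wide shift. At equal depth the values were Ifitm2 1.51, Il17rc 2.16, Zbp1 1.73, Nrros 2.42, Ifitm7 2.09, Herc6 2.00, Il17re 2.15 and Sntg1 1.34. Without a low-count filter, and equally at a mean CPM of at least 1, they were Il17rc 0.21, Zbp1 0.20, Nrros 0.24, Ifitm7 0.05, Herc6 0.28 and Il17re 0.02. With limma-voom Ltb was -0.24, Tgtp1 -0.02 and Vnn1 -0.56. With the block Ltb was -0.07 and Vnn1 -0.28, and Vnn1 was also -0.08 with upper-quartile factors and -0.02 when scaled to the sum of the listed genes. With single libraries left out the ranges were Mmp25 -0.03 to 0.57, Nt5e -0.22 to 0.49, Il17rc -0.48 to 0.16, Ltb -0.22 to 0.60, Zbp1 -0.33 to 0.37, Fgr -0.67 to 0.89, Nrros -0.83 to 0.30, Ifitm7 -0.61 to 0.32, Cxcl10 -0.02 to 0.90, Herc6 -0.33 to 0.36, Il17re -0.77 to 0.15, Tgtp1 -0.10 to 0.53 and Vnn1 -0.51 to 0.63.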
